A study of Mus musculus with 6 samples.

Results

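Osteoclasts are giant cells that dissolve bone and mineralized cartilage, and they arise when precursors of the monocyte and macrophage lineage fuse. Fusion needs the membrane proteins DC-STAMP (*Dcstamp*) and OC-STAMP (*Ocstamp*) and the d2 subunit of the vacuolar proton pump (*Atp6v0d2*). Resorption then needs acid and enzymes: carbonic anhydrase 2 (*Car2*) supplies protons, the chloride-proton exchanger ClC-7 (*Clcn7*) with its partner *Ostm1* balances the charge, and tartrate-resistant acid phosphatase (*Acp5*) and cathepsin K (*Ctsk*) act in the resorption space. The collagen-binding receptor *Oscar* costimulates differentiation, and the calcitonin receptor (*Calcr*) carries the signal that stops resorption. In a fracture callus these cells remove mineralized cartilage as bone replaces it. These 10 genes were taken by symbol from the gene lists of the libraries, and all 10 were among the 52081 gene identifiers that the libraries share. On GRCm38 (GENCODE M21 annotation) the fusion genes lie apart, *Dcstamp* at chr15:39745930-39760938 (plus strand), *Ocstamp* at chr2:165393760-165400405 (minus strand) and *Atp6v0d2* at chr4:19876841-19922605 (minus strand). The genes of acid secretion are *Car2* at chr3:14886273-14900770 (plus strand), *Clcn7* at chr17:25133391-25162104 (plus strand) and *Ostm1* at chr10:42583822-42702459 (plus strand). The enzymes are *Acp5* at chr9:22126727-22135711 (minus strand) and *Ctsk* at chr3:95499256-95509362 (plus strand), and the receptors *Oscar* at chr7:3609813-3616157 (minus strand) and *Calcr* at chr6:3685680-3764714 (minus strand).

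The cells came from femoral fracture calluses of 12-week-old mice, collected 14 days post-fracture (dpf), and were sequenced as 3′ single-cell libraries, where transcripts are counted by unique molecular identifiers (UMIs). There were 3 control libraries, labelled wt, from *Piezo1* f/f mice, and 3 libraries labelled knockout, from *Col2a1*CreERT2; *Piezo1* f/f mice, whose sample labels write the gene as Piezo3. Tamoxifen was injected in both groups, at 75 mg/kg a day over 5 days. It activates the Cre, which the *Col2a1* promoter drives in chondrocytes and not in osteoclasts, so the comparisons by genotype label are made in cells outside the targeted lineage.

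The 6 libraries held 57626530 to 103784364 UMIs and 3482 to 11447 barcodes, and 41863 cells were kept. Several libraries stood apart. Replicate 1 of both groups had the lowest median UMIs per barcode, 2554 and 2728.5, against 5691 to 9289.5 in the others. The library knockout 3 held *Xist*, a transcript of female cells, at 579 CPM (UMI counts scaled to 1000000 UMIs) and the Y-linked *Ddx3y* at 0, whereas the other 5 had *Xist* at 0.168 or less and *Ddx3y* at 52.3 to 124, and the methods describe the mice as male. *Piezo1* in chondrocyte-like cells was 71.9, 46.5 and 48.3 CPM in control 1 to 3 and 136, 58.9 and 49.5 in knockout 1 to 3. It was not lower in the libraries labelled knockout, although a count at the 3′ end need not lie in the deleted exons, which are not given in the sources used here, so it checks nothing. Pairs of libraries shared 4 to 36 cell barcodes.

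Clustering without the 10 genes gave 1 osteoclast-like cluster of 1545 cells, 3.69% of all cells, with 13 of the 14 osteoclast markers that were listed for the naming. *Slc9b2*, *Mt3* and *Chchd10* led it, and *Mmp9*, a matrix protease of osteoclasts, was among its 10 leading genes. There were 48, 116 and 453 such cells in control 1 to 3 and 30, 680 and 218 in knockout 1 to 3. Macrophage-like cells, 3642 in all, formed a cycling cluster of 600 cells and another of 3042. Monocyte-like cells numbered 1445, and 28412 cells were non-myeloid. *C1qa*, a complement gene of macrophages, was 1606 to 2951 CPM in macrophage-like cells and 34.8 to 118 in osteoclast-like cells. Each level given here is the CPM of a gene among the summed UMIs of a class in a library. Since the classes came from clustering, levels between classes are a description with no test.

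Since most of these genes were high in the same cells, promoter windows were searched for motifs of factors known in osteoclasts, in the 250 bases before the annotated start (RefSeq, GRCm38.p6), on both strands. The start of *Ostm1* in that table lies inside the gene span given above, with its window at chr10:42678666-42678915. The table held 6 of the 10 genes, and *Atp6v0d2*, *Ocstamp*, *Dcstamp* and *Car2* were not among them. It listed *Acp5* 3 times and *Clcn7* and *Calcr* 2 times each. Only the start nearest the 5′ end of the gene span was searched for each gene. The windows shown are the ones with a match, of *Ctsk* and *Oscar*, which stood far higher in osteoclast-like cells, and of *Clcn7*, which did not. They are *Ctsk* at chr3:95498960-95499209 on the plus strand, *Oscar* at chr7:3616158-3616407 on the minus strand and *Clcn7* at chr17:25133141-25133390 on the plus strand. Capitals mark matches to GAGGAA (a PU.1 core), TGGAAA (an NFAT core) or CACGTG (an E-box), read on either strand.
Ctsk: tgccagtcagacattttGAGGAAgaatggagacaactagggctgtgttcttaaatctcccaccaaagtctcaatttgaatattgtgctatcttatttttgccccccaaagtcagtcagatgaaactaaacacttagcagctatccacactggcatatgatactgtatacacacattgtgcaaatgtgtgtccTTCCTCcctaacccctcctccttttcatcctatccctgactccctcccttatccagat
Oscar: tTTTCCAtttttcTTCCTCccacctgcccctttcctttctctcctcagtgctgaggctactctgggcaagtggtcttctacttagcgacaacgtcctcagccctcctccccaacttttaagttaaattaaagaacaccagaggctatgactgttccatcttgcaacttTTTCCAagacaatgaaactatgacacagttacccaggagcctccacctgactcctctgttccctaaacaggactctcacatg
Clcn7: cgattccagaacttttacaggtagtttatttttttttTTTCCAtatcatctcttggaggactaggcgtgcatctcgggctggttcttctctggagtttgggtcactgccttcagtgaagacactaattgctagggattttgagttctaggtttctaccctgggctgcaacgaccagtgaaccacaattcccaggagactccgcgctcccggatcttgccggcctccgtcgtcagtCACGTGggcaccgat

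The *Ctsk* window held 2 PU.1 cores, which start 233 and 58 bases before the start. The *Oscar* window held 2 NFAT cores, 249 and 82 bases before it, and 1 PU.1 core, 237 bases before it. In *Clcn7* there was 1 NFAT core, 213 bases before the start, and 1 E-box 15 bases before it. The windows of *Acp5*, *Ostm1* and *Calcr* held none of these letters and are not shown, although *Acp5* and *Calcr* also stood higher in osteoclast-like cells. Neither the AP-1 motif TGANTCA nor the M-box TCATGTG was in any of the 6 windows. Of 32851 promoter windows of this length, 23.3% held the PU.1 core, 18.6% the NFAT core, 6.02% the E-box, 6.75% the AP-1 motif and 3.25% the M-box, so the cores are frequent letters and the matches describe the sequence only.

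The fusion genes were concentrated in osteoclast-like cells. *Dcstamp* was 251, 244 and 137 CPM in control 1 to 3 and 256, 257 and 267 in knockout 1 to 3. In macrophage-like cells it was 3.30 to 39.9, and within each library the osteoclast-like level was 6.45 to 77.5 times as high, with a median of 10.1. *Dcstamp* had 3 UMIs or fewer in monocyte-like cells of 5 libraries, and in non-myeloid cells it was 0.356 to 7.27. *Ocstamp* was 291, 298 and 211 in the control libraries and 484, 251 and 261 in those labelled knockout, a median of 15.6 times the macrophage-like level of 6.28 to 29.5. Both genes were thus higher in osteoclast-like than in macrophage-like cells in all 6 libraries. For *Ocstamp* the monocyte-like level, 0 to 13.4, overlapped the macrophage-like range.

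*Atp6v0d2*, the pump subunit, was 1057, 1090 and 973 CPM in control 1 to 3 and 1088, 926 and 970 in knockout 1 to 3. The libraries thus lay close together. The macrophage-like level was 88.5 to 202, and the osteoclast-like level was a median of 5.74 times as high. Monocyte-like cells, at 0.966 to 15.5, overlapped non-myeloid cells, at 1.58 to 22.1.

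Among the genes of acid secretion, *Car2* was high in osteoclast-like cells but not only there. Its osteoclast-like level was 201, 254 and 185 in the control libraries and 219, 283 and 218 in those labelled knockout, a median of 8.20 times the macrophage-like level of 3.96 to 42.3. Erythroid cells, in which carbonic anhydrase 2 is abundant, had 1336 to 3852 in the 4 libraries with more than 10 of them. Those cells held up to 56.0% of the *Car2* UMIs of a library, and osteoclast-like cells 18.3 to 59.7%.

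*Clcn7* and *Ostm1* were spread over the callus. *Clcn7* was 85.5, 92.0 and 130 CPM in osteoclast-like cells of control 1 to 3 and 169, 84.8 and 76.5 in knockout 1 to 3, a median of 2.24 times the macrophage-like level of 33.7 to 65.1. *Ostm1* was 54.5, 60.5 and 47.0 in the control libraries and 115, 44.6 and 43.6 in those labelled knockout. Against macrophage-like cells, at 24.0 to 63.4, and monocyte-like cells, at 34.3 to 62.2, the *Ostm1* level overlapped, with median ratios of 1.36 and 1.24. Non-myeloid cells had 10.8 to 17.1 of *Clcn7* and 10.8 to 16.04 of *Ostm1*, below osteoclast-like cells in every library.

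The enzymes were also concentrated in osteoclast-like cells. *Acp5* was 6584, 7734 and 8364 CPM in osteoclast-like cells of control 1 to 3 and 13720, 10610.5 and 9605 in knockout 1 to 3. Macrophage-like cells had 303 to 1546, monocyte-like cells 28.6 to 324 and non-myeloid cells 20.2 to 352. The osteoclast-like level was a median of 9.82 times the macrophage-like level. *Ctsk* was 5215, 7945 and 6634 in the control libraries and 9031, 6640 and 8038 in those labelled knockout, a median of 13.3 times the macrophage-like level of 239 to 834.

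The receptors were close to 0 outside osteoclast-like cells. *Oscar* was 32.3, 79.3 and 43.4 CPM in osteoclast-like cells of control 1 to 3 and 132, 73.2 and 64.2 in knockout 1 to 3. It was 0.214 to 2.20 in macrophage-like cells, with 3 UMIs or fewer in 3 libraries, and in monocyte-like cells it had a UMI in 3 of 1445 cells. *Calcr* was 6.97, 17.3 and 3.45 in the control libraries and 16.7, 2.42 and 11.9 in those labelled knockout. It had no UMI in monocyte-like cells or in the other macrophage-like cluster, 0 of 3042 cells (upper 95% Wilson bound 0.126%), and it had 4 UMIs in cycling macrophage-like cells, all in knockout 2. *Calcr* UMIs were found in 80 of 1545 osteoclast-like cells, 5.18% (95% Wilson interval 4.18 to 6.40%, for counting error only). The far more numerous non-myeloid cells held 32 of the 197 *Calcr* UMIs. Their share was 56% in control 1, 35.7% in knockout 1 and 0 to 15.8% in the other libraries.

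**Figure D1:**
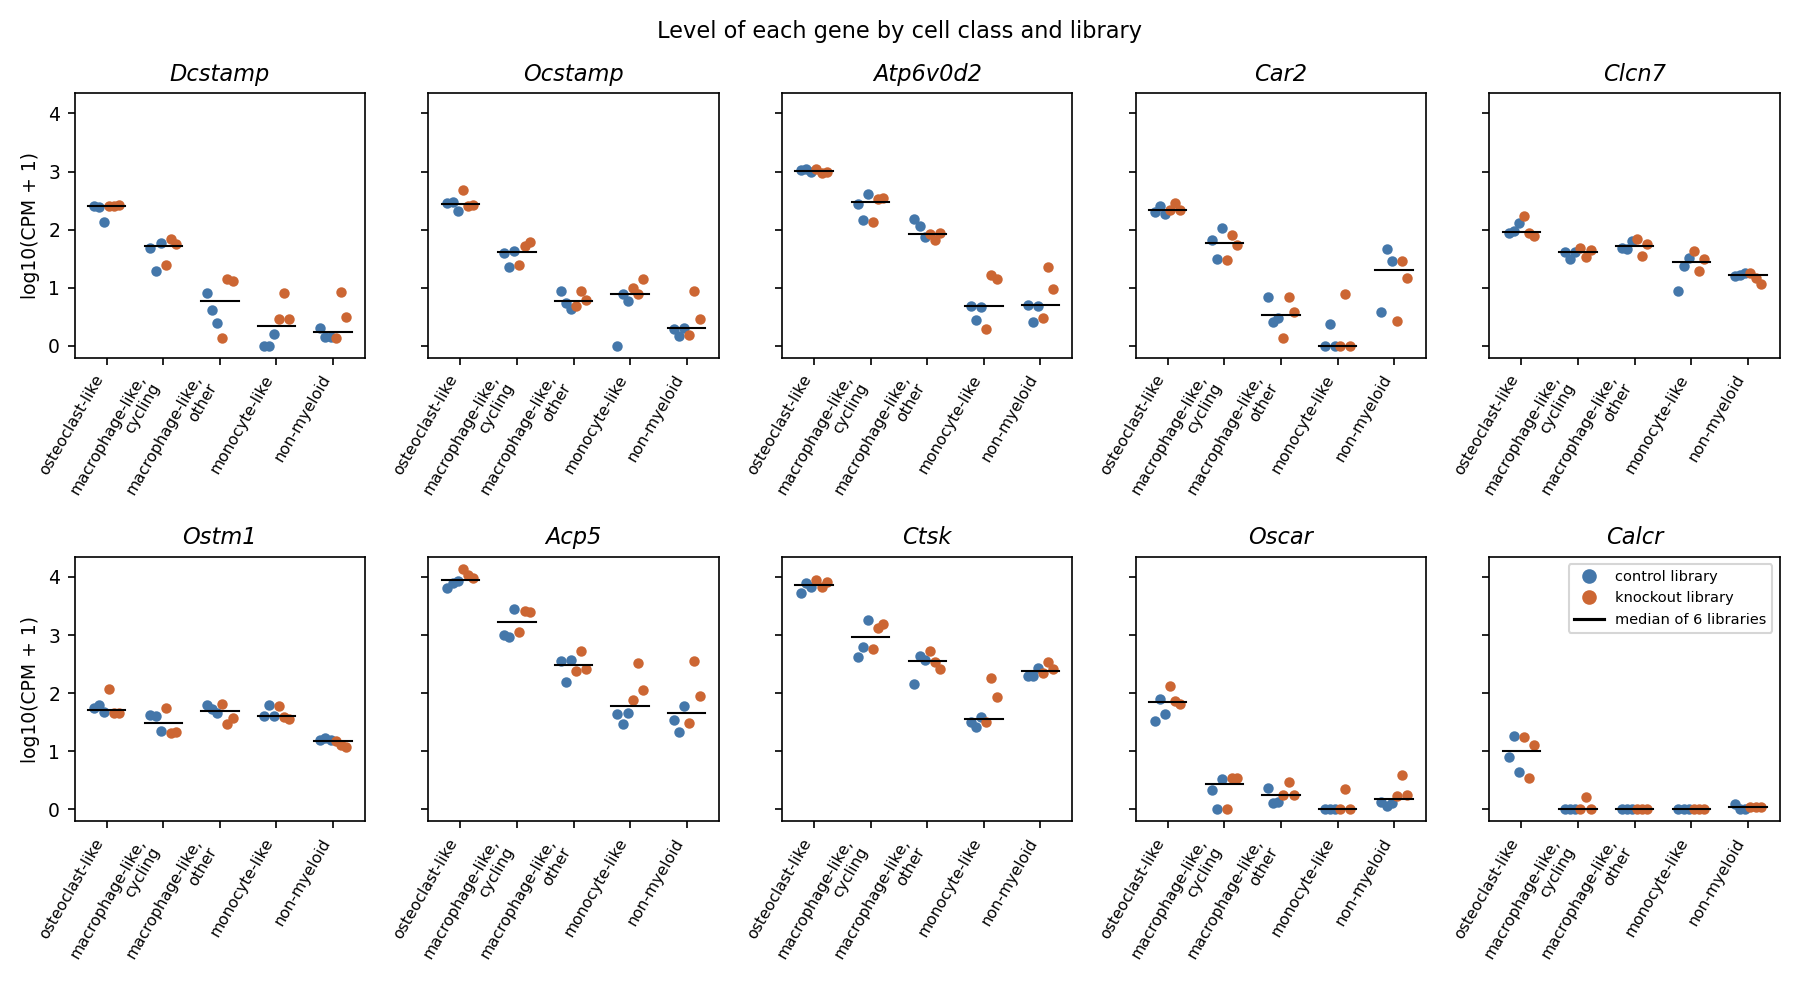
Level of each gene, as log10 of CPM plus 1, in 5 cell classes, with 1 point per library (blue for control, orange for libraries labelled knockout) and a line at the median of the 6 libraries. Osteoclast-like cells stand above the other classes for *Dcstamp*, *Ocstamp*, *Atp6v0d2*, *Acp5*, *Ctsk* and *Oscar*, while the *Ostm1* levels of osteoclast-like, macrophage-like and monocyte-like cells overlap.

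In all, 9 of the 10 genes were higher in osteoclast-like than in macrophage-like cells in all 6 libraries, the exception being *Ostm1*, which was lower in 1 of them. The median ratio was over 10 for 5 genes, counting macrophage-like UMIs of 3 or fewer as 3 for *Oscar* and *Calcr*, whose ratios are therefore lower bounds in those libraries. With each cell weighted equally the median log2 ratio over the genes other than *Oscar* and *Calcr* was 4.23 instead of 3.11. *Acp5* and *Car2*, at 4.21 and 4.66, then also passed a ratio of 10. Among 12387 genes with at least 100 UMIs in both classes together, 0.355% had a median ratio over 10, and the median gene had 0.935. The 10 genes were chosen as genes of osteoclasts, so these counts are a description of the cluster.

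Within macrophage-like cells the cycling cluster had more of most of these genes. *Acp5* was 910 to 2770 CPM there and 156 to 533 in the other cluster, *Car2* 28.9 to 107 and 0.378 to 5.88, *Dcstamp* 18.6 to 66.9 and 0.378 to 13.1, and *Ocstamp* 21.9 to 61.3 and 3.33 to 7.94, so these ranges did not overlap. For *Ctsk*, at 419 to 1851 against 139.9 to 539.5, and *Atp6v0d2*, at 134 to 404 against 64.1 to 154, the ranges overlapped. *Ostm1* had medians of 30.4 in the cycling cluster and 47.5 in the other, with overlapping ranges. Within every library both *Ostm1* and *Clcn7* were lower in the cycling cluster than in the other. The cycling cluster held only 20 cells in control 1 and 10 in knockout 1. The share of all genes whose ranges did not overlap between these clusters is not given here. *Mki67*, a gene of dividing cells, was 495 to 998 in the cycling macrophage-like cluster and 26.4 to 40.3 in osteoclast-like cells. The cycling cluster also had a median of 20645.5 UMIs per cell against 6500.5, and the part of this difference in depth was not tested.

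Non-myeloid cells gauge the RNA that leaves broken cells and enters other droplets. *Acp5* in non-myeloid cells was highest in knockout 2, at 352 CPM. In that library osteoclast-like cells also held the largest share of UMIs, 12.5% against 0.994 to 7.80% in the others. The other libraries did not all keep this order, as control 3, with 7.80%, had 59.7 CPM and knockout 3, with 5.25%, had 87.8. Osteoblast-like cells, 1719 of 2728 of them in knockout 2, held 12477 of the 33302 non-myeloid *Acp5* UMIs. The source of these UMIs was not tested. Monocyte-like cells had *Acp5* at 42.5, 28.6 and 44.7 in control 1 to 3 and 76.3, 324 and 111 in knockout 1 to 3. In non-myeloid cells it was 32.8, 20.2 and 59.7 and 29.0, 352 and 87.8. Monocyte-like cells were thus above that gauge in 4 of the 6 libraries and below it in control 3 and knockout 2. To compare shares of cells at 1 depth, each cell was reduced at random to 500 UMIs, which left out 1 osteoclast-like and 38 non-myeloid cells. At that depth *Acp5* had a UMI in 81.5% of osteoclast-like, 19.6% of macrophage-like, 7.40% of monocyte-like and 6.85% of non-myeloid cells. Before this step the shares were 96.8, 68.8, 42.3 and 42.2%, at median depths of 15922, 7465, 4803 and 7394.5 UMIs. These shares pool libraries that differ widely, from 0 to 16.4% for monocyte-like and from 1.71 to 18.7% for non-myeloid cells, so no order of those 2 classes is read from them. *Dcstamp* had a UMI in 9.20, 0.659, 0.208 and 0.152% of these classes at 500 UMIs.

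*Ctsk* differed from *Acp5* outside the myeloid cells. In osteoclast-like cells there were 0.626 to 1.03 *Ctsk* UMIs per *Acp5* UMI, and in stromal cells 1.04 to 17.6, with a median of 5.58. Stromal cells that were neither chondrocyte-like nor osteoblast-like had *Ctsk* at 299 to 530 CPM, while endothelial cells of the same libraries had 21.3 to 172. The ratios of *Ocstamp* and *Dcstamp* to *Acp5* were instead lower in non-myeloid than in osteoclast-like cells in all 6 libraries, with medians of 0.0218 and 0.0312 for *Ocstamp* and 0.0201 and 0.0260 for *Dcstamp*. As a result osteoclast-like cells held 28.4 to 70.4% of the *Ctsk* UMIs of a library but 73.4 to 84.7% of those of *Acp5*, 74.99 to 88.9% of *Dcstamp* and 76.6 to 85.3% of *Ocstamp*. They held 7.80 to 42.0% of *Clcn7* and 5.90 to 29.4% of *Ostm1*. B cells had *Acp5* at 64.8 to 497, but the 6 libraries held only 259 such cells.

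**Figure D2:**
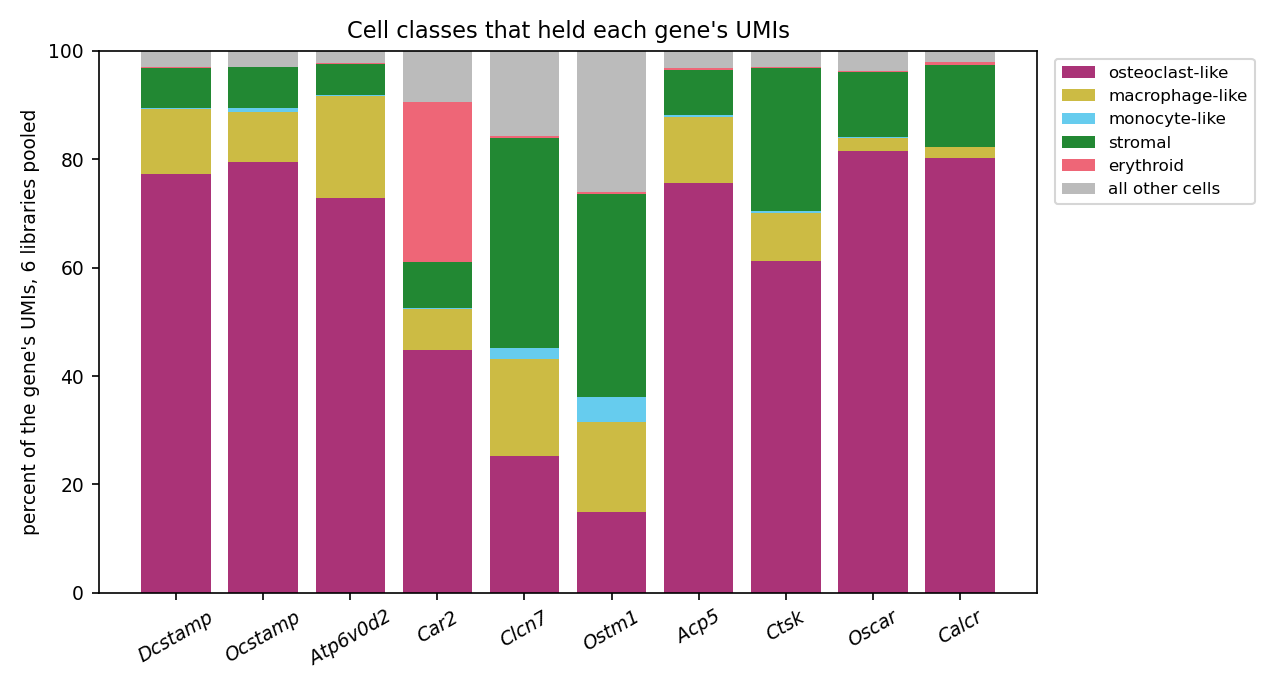
Percent of each gene's UMIs that lay in each cell class, with the 6 libraries pooled (vertical axis, 0 to 100%). Osteoclast-like cells hold most UMIs of *Acp5*, *Ctsk*, *Dcstamp*, *Ocstamp*, *Atp6v0d2*, *Oscar* and *Calcr*. Stromal cells hold a large part of *Clcn7* and *Ostm1* and 26.4% of *Ctsk*, and erythroid cells a large part of *Car2*.

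Osteoclast-like cells were not uniform. When they were clustered again without the 10 genes, sub-cluster 1, with 489 cells, was led by *Ccnd1* and by DNA replication genes such as *Mcm3*, *Mcm5* and *Pclaf*, and sub-cluster 4, with 191 cells, by *Mt3* and *Itgb3*, the integrin subunit of the sealing zone. *Acp5* was 2437 ± 467 CPM in sub-cluster 1 (SD, n = 5 libraries with at least 10 of its cells) and 18829 ± 7862 in sub-cluster 4 (n = 4). *Ctsk* was 1023 ± 231 and 14849 ± 1728, and *Dcstamp* 53.5 ± 10.8 and 425 ± 139. The enzymes and this fusion gene were thus all far lower in the cells with replication genes. *Oscar* went from 0.877 ± 0.865 to 192 ± 104, and *Calcr* from 0 in every library to 22.6 ± 13.5. The same direction held for *Atp6v0d2*, at 392 ± 66.4 and 1559 ± 118, and for *Ostm1*, at 24.1 ± 9.68 and 89.5 ± 20.99. All 10 genes were thus higher in sub-cluster 4 than in sub-cluster 1, and their ranges over libraries did not overlap. The share of all genes that did so is not given here, so this describes the 2 sub-clusters only. Sub-cluster 4 was also deeper, with a median of 22063 UMIs per cell against 15867, and the part of depth was not tested. For *Acp5*, *Ctsk*, *Dcstamp*, *Ocstamp*, *Car2* and *Atp6v0d2*, the ranges of sub-cluster 1 overlapped those of the cycling macrophage-like cluster given above. *Mki67* was 79.6 ± 12.3 in sub-cluster 1 and 4.40 ± 2.26 in sub-cluster 4, and *Mmp9* 435 ± 153 and 9800 ± 2980. *C1qa* in sub-cluster 1, at 155 ± 54.1, was below its macrophage-like level.

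Other sub-clusters followed libraries or depth. Sub-cluster 3 had a median of 1217 UMIs and 151 of its 210 cells in knockout 2, and sub-cluster 5 had 110 of 142 cells in control 3. Sub-clusters 6 and 7 were led by *Xist* or cartilage genes such as *Col2a1*, with 64 of 109 and 32 of 51 cells in knockout 3, and sub-cluster 2 had no cell of that library. Sub-cluster 1 took 33.3, 35.3 and 34.7% of the osteoclast-like cells in control 1 to 3 and 20, 31.3 and 25.7% in knockout 1 to 3.

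**Figure D3:**
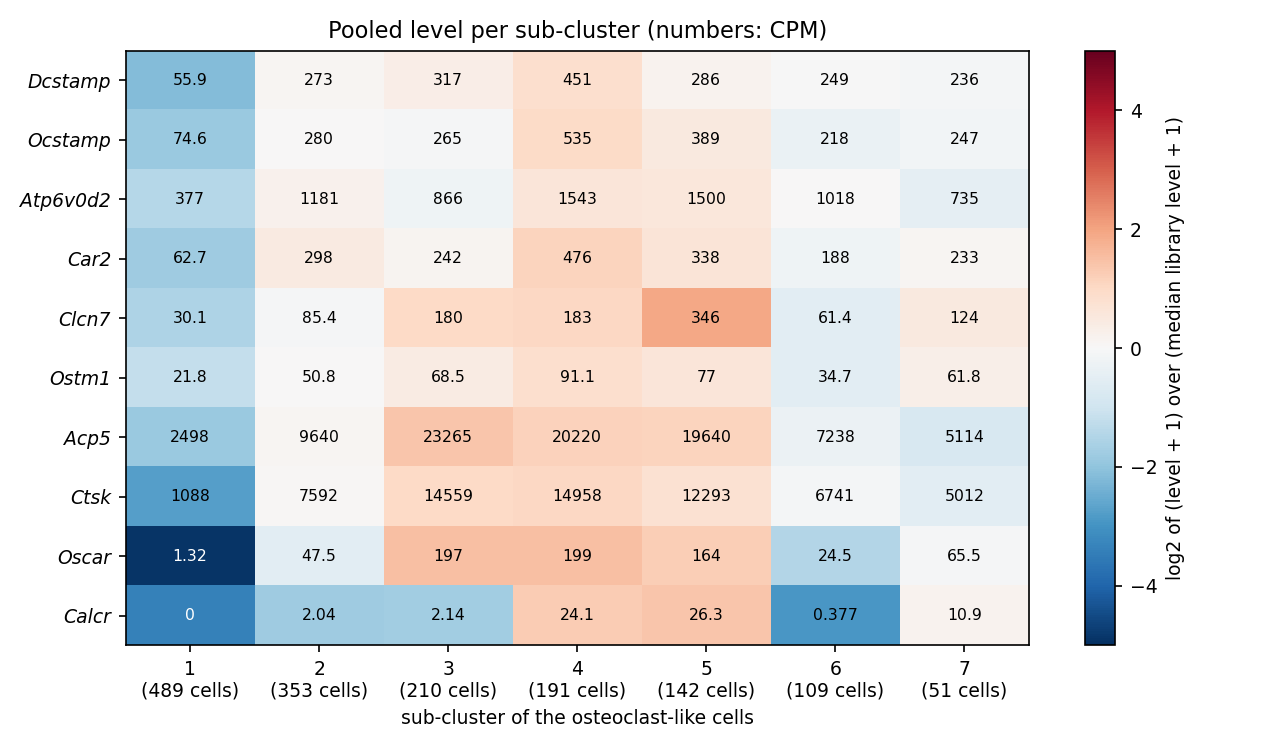
Levels of the 10 genes in 7 sub-clusters of the osteoclast-like cells, as pooled CPM (numbers) and as log2 of the level plus 1 over the median library level plus 1 (colour). Sub-cluster 1, led by replication genes, is the lowest for every gene, and sub-clusters 3, 4 and 5 are the highest for *Acp5* and *Ctsk*.

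In single cells the genes were found together. Of the osteoclast-like cells, 70.1% had UMIs of at least 5 of the 10 genes, 3.30% of all 10 and 1.75% of none. Among 1250 cells reduced to 5000 UMIs each, *Dcstamp* was found in 65.1% of those with *Ocstamp* and 25.9% of those without. *Car2* was found in 61.7% of the cells with *Dcstamp* and 30.2% of those without, whereas *Ostm1* was found in 22.7 and 13.2%. Across 66 sums of a class in a library, the level of each gene was set against the mean of the other 9. Pearson's r was 0.917 for *Ocstamp*, 0.904 for *Dcstamp*, 0.894 for *Atp6v0d2*, 0.892 for *Acp5*, 0.867 for *Oscar*, 0.840 for *Ctsk* and 0.831 for *Calcr*, and lower for *Clcn7* (0.617), *Ostm1* (0.424) and *Car2* (0.419). These sums share libraries and depth, and r is given as a description. Of 8929 other genes, the 8 most like the mean of the 10 were *Slc9b2*, *Atp6v1c1*, *Nyap2*, *Serpind1*, *Cyp2s1*, *Bdh2*, *St18* and *Atp6v0e*, with r from 0.858 to 0.937. *Slc9b2*, a sodium-proton exchanger, came first, and *Atp6v1c1* and *Atp6v0e* are subunits of the proton pump. *Slc9b2* and *Atp6v1c1* had also served as osteoclast markers.

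Other genes of the same machinery were counted from lists, in which some genes had also served as markers or in the clustering. The osteoclast markers among them were *Tcirg1*, *Atp6v1c1*, *Itgb3*, *Src*, *Tnfrsf11a*, *Nfatc1*, *Jdp2*, *Snx10*, *Slc9b2*, *Slc37a2* and *Mmp9*. Each of these was higher in osteoclast-like than in macrophage-like cells in every library, so the counts in part follow the naming of the cluster. Of 18 genes of the proton pump, 13 were higher in osteoclast-like than in macrophage-like cells in all 6 libraries and 3 in none, with a median ratio of 2.16. Among these 3, *Atp6v1b1* was at 0 CPM in both classes, and its ratio was counted as 0 in the median. *Atp6v0c*, of the membrane ring, was 4408 ± 812 CPM against 2041 ± 251 in macrophage-like cells (SD, n = 6). Of 10 genes of adhesion and the sealing zone, 7 were higher in every library and 1 in none, with a median ratio of 2.51, where *Tln1*, which links integrins to actin, was 486 ± 93.2 against 382 ± 66.4 and *Rac2*, a small GTPase of the cytoskeleton, 464 ± 107 against 158 ± 41.4.

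Of 16 genes of RANK signalling and its transcription factors, 8 were higher in every library and 3 in none, with a median ratio of 1.27. *Jdp2*, an AP-1 factor, was 724 ± 251 against 192 ± 49.0 CPM, while *Fos* was 833 ± 353 against 1050.5 ± 424 and higher in 1 library of 6. Among 11 genes of lysosomes and vesicle traffic 5 were higher in every library and 4 in none (median ratio 0.987), and *Snx10*, a sorting nexin, was 580.3 ± 151 against 126 ± 20.7. Among 9 genes of the protease list, which includes the protease inhibitor *Cst3*, 2 were higher in every library and 5 in none (median ratio 0.203). *Mmp9* was 4695 ± 1720 against 159 ± 115. Costimulation genes other than *Oscar* had 1 of 8 higher in every library and 4 in none (median ratio 0.881), and of the adaptors of these receptors *Tyrobp* was 1867 ± 411 against 1925 ± 296 and higher in 3 libraries of 6, and *Fcer1g* 743 ± 183 against 1928 ± 346. Other genes of macrophage fusion had 1 of 8 higher and 5 in none (median ratio 0.547), where *Cd44* was 428 ± 181 against 507 ± 237 and higher in 2 libraries of 6, and *Sirpa* 307 ± 69.0 against 507 ± 67.0. Over the 12387 genes with at least 100 UMIs in both classes together, 19.2% were higher in every library and 27.1% lower. The lists were not limited to genes with that many UMIs.

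The share of osteoclast-like cells was compared by genotype label with an exact permutation test over the 20 assignments of libraries, two-sided, whose smallest p is 0.1. Osteoclast-like cells were 1.15, 1.38 and 5.19% of all cells in control 1 to 3 and 0.965, 6.76 and 2.96% in knockout 1 to 3. The means were 2.57 ± 2.27% and 3.56 ± 2.94% (SD, n = 3), and the groups overlapped (p = 0.7, exact permutation test). Of osteoclast-like, macrophage-like and monocyte-like cells together they were 25.4, 10.1 and 24.0% and 11.3, 29.9 and 24.9%, with means of 19.9 ± 8.45% and 22.0 ± 9.65% (p = 0.6, exact permutation test). Without knockout 2 the difference of the means turned from 0.988 to -0.610 percentage points for the first share and from 2.18 to -1.77 for the second, and without control 2 the second turned to -2.68. Without knockout 3, the library with *Xist*, the differences were 1.29 and 0.757.

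In osteoclast-like cells none of the 10 genes differed by genotype label past the threshold of an adjusted p of 0.05 (edgeR's quasi-likelihood test, Benjamini-Hochberg over 10810 genes). Of all genes tested 0% passed, 468 had an unadjusted p under 0.05, and DESeq2 also called 0. *Acp5* and *Dcstamp* were the 2 of the 10 genes whose groups did not overlap, both higher in the libraries labelled knockout. Over all genes tested 8.04% did not overlap, 2.63% in that direction and 5.41% in the other. With each cell weighted equally, instead of summed UMIs, both genes overlapped between the groups. *Acp5* was then 6893, 6736 and 9615 CPM in control 1 to 3 and 9716, 10417 and 8469 in knockout 1 to 3. *Dcstamp* was 215, 194 and 143 in the control libraries and 178, 233 and 245 in those labelled knockout. Without knockout 1, 1983 of 11791 genes tested by edgeR had an unadjusted p under 0.05, and 0 passed.

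*Acp5* was 7561 ± 903 CPM in the control libraries and 11312 ± 2145 in those labelled knockout (SD, n = 3), 0.62 ± 0.29 apart as a log2 fold change with its SE (edgeR's adjusted p = 0.999). All 3 libraries labelled knockout were above all 3 control libraries, by the narrow margin of 9605 to 8364. Within replicate numbers (both libraries of replicate 1 share a Cell Ranger version and both of replicate 3 a gene list) the log2 ratio was 1.06, 0.46 and 0.20, and without knockout 3 the fold change was 0.66. *Dcstamp* was 211 ± 63.9 and 260 ± 6.20, a log2 fold change of 0.40 ± 0.27 (adjusted p = 0.999 by edgeR). Control 3 alone was low, the other 5 libraries lay between 244 and 267, and the fold change of *Dcstamp* was 0.19 without control 3 and 0.32 without knockout 3.

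For *Oscar* the log2 fold change was 0.77 ± 0.34, and by replicate number the log2 ratio was 2.03, -0.11 and 0.56, with the largest value in replicate 1. Its unadjusted p was 0.048 and its adjusted p 0.999 by edgeR, and without control 2 the fold change of *Oscar* was 1.21. *Ocstamp*, at 0.33 ± 0.25, *Ctsk*, at 0.31 ± 0.30, and *Ostm1*, at 0.23 ± 0.29, also had their highest value in knockout 1, which held 30 osteoclast-like cells with a median of 3427 UMIs. *Car2* was at 0.25 ± 0.25, with a ratio above 0 in each replicate number (0.12, 0.16 and 0.23). *Clcn7*, at 0.06 ± 0.28, *Calcr*, at 0.04 ± 0.75, and *Atp6v0d2*, at -0.0047 ± 0.231, were near 0.

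Of the marker lists of other cells, those of stromal cells, osteoblasts and pericytes did not overlap between the groups in the osteoclast-like sums. All the other lists overlapped. Of all genes tested singly, 8.04% did not overlap. The summed level of the 10 stromal markers in osteoclast-like cells was 899 to 2557 CPM in control libraries and 2988 to 3226 in those labelled knockout, and all 10 were measured. The 9 osteoblast markers, at 52.3 to 483 and 495.5 to 703, and the 8 pericyte markers, at 47.5 to 119 and 17.0 to 39.7, did not overlap either. The 10 chondrocyte markers, at 279 to 3413 and 24.8 to 3354, and the 12 macrophage markers, at 889 to 1145 and 917 to 1459, overlapped. Sub-cluster 1, in which all 10 genes were lowest, also had a lower share in each library labelled knockout than in each control library. The shares of every other sub-cluster overlapped between the groups. For sub-cluster 1 the closest values were 33.3% in control 1 and 31.3% in knockout 2. Its 20% in knockout 1 was 6 of 30 cells, and no test was run on these shares. The part of the marker lists and of sub-cluster 1 in the values of *Acp5* and *Dcstamp* was not tested. Without sub-cluster 1, an alternative chosen after seeing the data, the fold changes were 0.68 for *Acp5* and 0.39 for *Dcstamp*. The 14 osteoclast markers summed to 9205 to 12144 and 8597 to 14492.

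**Figure D4:**
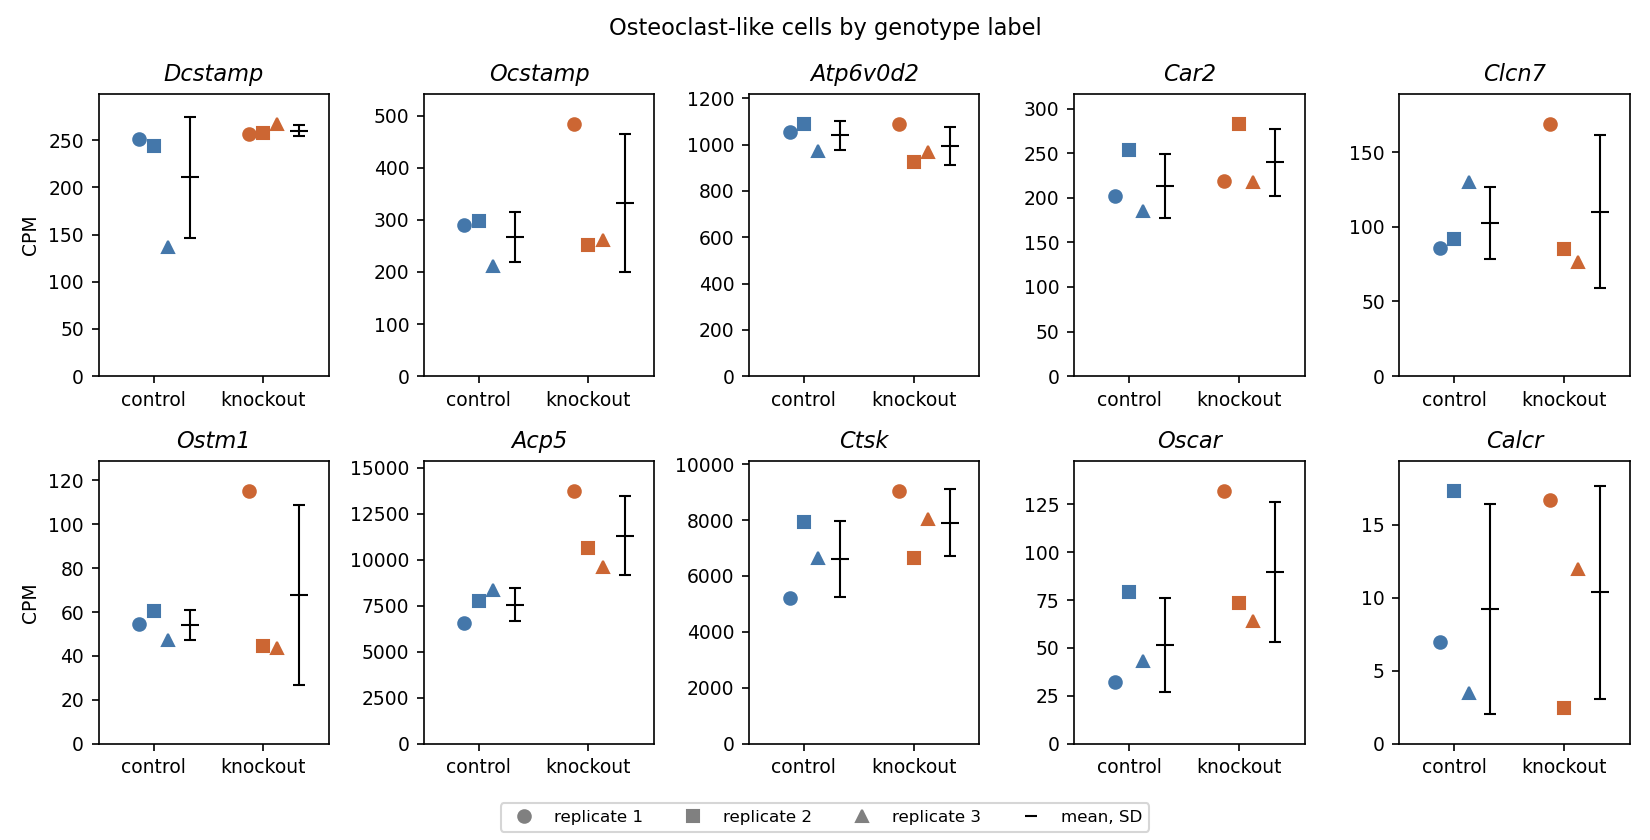
CPM of each gene in osteoclast-like cells, with 1 point per library by genotype label (shapes give the replicate number) and the mean and SD of 3 libraries beside them; each vertical axis starts at 0. *Acp5* and *Dcstamp* do not overlap between the groups, and knockout 1 (circle) is the highest library for *Acp5*, *Ctsk*, *Ocstamp*, *Oscar*, *Clcn7* and *Ostm1*.

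Of the related lists, 0 genes passed in osteoclast-like cells. Tested were 17 of 18 proton pump genes with a median log2 fold change of 0.17, 16 of 16 RANK genes with -0.28 and 8 of 8 costimulation genes with -0.01. So were 8 of 8 fusion genes with -0.04, 10 of 10 sealing zone genes with 0.02 and 9 of 11 lysosome genes with -0.05. Of the protease list 8 of 9 genes were tested with 0.27, beside -0.01 over all genes tested. The 10 genes had a median of 0.28, and 9 of them were above 0, as were 5258 of the 10810 genes tested.

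In macrophage-like cells 8 of the 10 genes had enough UMIs to be tested, *Oscar* and *Calcr* did not, and 0 of the 8 passed (0% of 12268 genes passed and 181 had an unadjusted p under 0.05). Their groups all overlapped, against 4.69% of genes tested whose groups did not (2.29% higher and 2.4% lower in the libraries labelled knockout). *Acp5* was 629 ± 350 and 1045 ± 622 CPM, a log2 fold change of 0.74 ± 0.64, but by replicate number the log2 ratio was -0.74, 2.35 and 0.31. *Dcstamp*, at 0.86 ± 0.75, *Ocstamp*, at 0.79 ± 0.56, and *Ctsk*, at 0.54 ± 0.48, had SEs close to their size. *Dcstamp* and *Car2* turned sign between replicate 1, at -2.70 and -2.77, and replicate 2, at 2.69 and 2.54. Of the macrophage-like cells, 20 of 121, 56 of 550 and 116 of 1168 were in the cycling cluster in control 1 to 3. In knockout 1 to 3 these were 10 of 160, 277 of 1066 and 121 of 577. The cycling cluster had the higher levels of *Acp5*, *Car2* and *Dcstamp*, and the part of this mix in the fold changes was not tested. DESeq2 called 4 genes in macrophage-like cells, none of the 10, namely *Mx1*, *Ifit1* and *Ifit2*, which interferon induces, and *mt-Nd6*, all lower in the libraries labelled knockout. These 4 are named after their values were seen, and edgeR gave them adjusted p-values of 0.759 to 0.9998. Without knockout 1, 1803 of 13088 genes tested by edgeR in macrophage-like cells had an unadjusted p under 0.05, and 0 passed.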

How the data were processed

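Single-cell suspensions of callus were captured with 10x Genomics 3′ chemistry, as 3 control libraries and 3 libraries labelled knockout. The methods of the study give 3 mice a group, but its results section gives other numbers. Whether each library holds 1 mouse is therefore not settled here. The deposited matrices hold counts of UMIs per gene and barcode, which the authors made with Cell Ranger (6.1.1 for replicate 1 of both groups and 6.1.2 for the others, per the file headers) on GRCm38. Replicate 3 of both groups used another gene list (55357 against 55450 genes), and only the 52081 shared identifiers were used.

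Of 46944 barcodes, 44937 passed minimums of 500 UMIs and 200 genes and a maximum of 20% for the mitochondrial share. Scrublet scores (scanpy 1.11.5) removed the highest 0.8% per 1000 cells of a library, 3074 in all, because its own threshold marked 0 or 1 cell in 3 libraries. Libraries were integrated (Seurat 5.3.0, RPCA, 2000 variable genes without the 10 genes, 30 components), and clustered with leidenalg 0.10.2 (20 neighbours, resolution 0.8). Clusters were named from marker lists, and names may therefore differ from those of the study.

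UMIs were summed per library and class. Genotype labels were compared with edgeR 4.0.16 (quasi-likelihood test, filterByExpr, TMM) in R 4.3.3, adjusted over all genes tested by Benjamini-Hochberg at 0.05, for libraries with at least 10 cells of the class. Shares of cells were compared with an exact permutation test enumerated in Python, and with a sign-flip test for the replicate block. The edgeR step was tested on simulated data. DESeq2 1.42.0 and other settings were alternatives. The p-values measure the spread between 3 libraries a group. Intervals cover counting error only.

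The members and lists were chosen with earlier results of these data known. Genes named from a list were the 1 or 2 of highest level in osteoclast-like cells, and the genes most like the 10 were the 8 of highest correlation.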

Additional observations from a re-analysis of the deposited data

How the results depend on the processing

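Of 541 recomputed values, 502 were scored as unchanged, 33 changed direction and 6 moved by more than the limit set for them. Tested values were scored as unchanged if they kept their direction and their side of the threshold. Counts of genes had to stay within a set fold. Class ratios had to keep their direction and shift by less than their SD. The shares could not change side, since the smallest p of 3 against 3 libraries is 0.1 in the exact permutation test. No alternative brought one of the 10 genes past the threshold, and the smallest adjusted p was 0.214 in osteoclast-like cells (*Acp5* without knockout 1, edgeR) and 0.321 in macrophage-like cells. Without a filter on low counts edgeR called 55 genes in osteoclast-like cells (36 higher and 19 lower) and 9 in macrophage-like cells, and DESeq2 called 4 in macrophage-like cells, where edgeR with the filter called 0. With each cell weighted equally the median log2 ratio of osteoclast-like over macrophage-like levels, without *Oscar* and *Calcr*, was 4.23 instead of 3.11. Leaving out 1 library at a time, the difference in share ranged from -0.610 to 2.29 percentage points of all cells and from -2.68 to 7.56 points of the 3 myeloid classes. It turned direction without knockout 2 for both (-0.610 and -1.77) and without control 2 for the second. Log2 fold changes ranged over left-out libraries, in osteoclast-like cells, from -0.051 to 0.069 for *Atp6v0d2*, -0.17 to 0.32 for *Clcn7*, -0.084 to 0.42 for *Ostm1* and -0.66 to 0.95 for *Calcr*, and in macrophage-like cells from -0.11 to 0.41 for *Atp6v0d2*, -0.14 to 0.24 for *Clcn7* and -0.49 to 0.70 for *Car2*. *Atp6v0d2* in osteoclast-like cells also turned to 0.012 under RLE scaling, 0.013 under DESeq2, 0.0019 without the filter and 0.0049 without the sub-cluster led by replication genes. *Calcr* turned to -0.10 without doublet removal, -1.09 without replicate 3 of both groups and -0.067 without that sub-cluster. In macrophage-like cells *Atp6v0d2* turned to -0.034 without replicate 3 of both groups and *Clcn7* to -0.011 without doublet removal. The cause was not tested. Leaving out sub-clusters was chosen after seeing the data.

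Replicate 1 of both groups shares a Cell Ranger version and a low median of UMIs per barcode, and replicate 3 a gene list. The number thus follows the processing in part, but no source ties it to an animal or a litter, and not every pair deviated together. Within macrophage-like cells replicate 1 was instead deeper, at medians of 15805 and 17488.5 UMIs against 5622 to 8669 in the others. In osteoclast-like cells control 1 had a median of 35463 UMIs and knockout 1 one of 3427. The deviations of same-numbered libraries correlated at 0.184, 0.017 and 0.038 in osteoclast-like cells and at 0.016, -0.180 and 0.041 in macrophage-like cells. In both classes the highest value belonged to libraries of unlike number, control 3 with knockout 2, at 0.230 and 0.200. With the replicate block 0 genes were called in either class, and *Atp6v0d2* and *Car2* in macrophage-like cells turned to -0.0026 and -0.066. The share differences stayed at 0.988 (p = 1, exact sign-flip test) and 2.18 (p = 0.75, exact sign-flip test). That test flips the signs of the differences within replicate numbers and does not use the 20 assignments of libraries. Depth limits the values of knockout 1, which held 30 osteoclast-like cells.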
